A study of Mus musculus with 14 samples.

Results

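The 10 genes followed here belong to the Nodal and activin pathway: Nodal, Gdf3, Pcsk6, Tdgf1, Cfc1, Acvr2b, Lefty1, Lefty2, Cer1 and Fst. They were chosen by name, with earlier results of these data known, so shares of all genes given beside their counts are a description. Each was read through the probe set that the platform annotation gives to that single symbol, and all 10 were found among the 19938 genes measured. RNA came from mouse embryonic stem (ES) cells that differentiated as embryoid bodies, free-floating cell aggregates that pass through a primitive-streak-like stage, and was profiled on 14 Affymetrix arrays in 6 groups. The induced cells co-expressed ER71 (the ETS factor Etv2), GATA2 and Scl (the gene Tal1), per their genotype labels and titles, after doxycycline at 1 µg/ml from day 2 on. Day 2.25 gave 1 array of untreated control cells and 1 of cells induced for 6 h. Day 2.5 gave 3 control arrays and 3 of cells induced for 12 h, and day 3 gave 3 control arrays and 3 of cells induced for 24 h. The genotype label of the controls reads wild-type, while their source label names the same lines without doxycycline. Replicates 1 and 2 of control and induced cells are of the line iEGS, and replicate 3 is of a line named iB1. The ES cells had been maintained on PMEF feeders. No group received doxycycline in the absence of the transgenes among the samples used here, so effects of the factors and of the drug cannot be told apart. The series asks which genes and signalling pathways lie downstream of the factors.

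Nodal is a secreted ligand of the TGF-beta family that the epiblast needs to form the primitive streak, mesoderm and endoderm. It acts through a complex of a type II activin receptor, a type I receptor and an EGF-CFC coreceptor, which activates Smad2 and Smad3, and activins use the same receptors without the coreceptor. The pathway induces several of its own components and antagonists, among them Nodal itself and the Lefty genes, so that ligand and inhibitor are often expressed together.

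The deposited values are log2 signals after RMA, a method that corrects background, forces arrays to a common distribution and summarises the probes of a set. A difference of 1 unit is therefore a 2-fold difference in signal, and levels are compared between samples for a given gene but not between genes. Any pair of arrays correlated across genes with r between 0.951 and 0.995. The array that stood furthest from the rest was induced 24 h replicate 3, with a mean r of 0.966. Its signals also had the narrowest spread over genes (SD 1.91), and the widest was on the induced 6 h array (SD 2.23). The induced factors checked the labels: Gata2 rose by 4.44 (12 h) and 3.95 (24 h), Etv2 by 3.11 and 1.94, and Tal1 by 2.48 and 2.30 on the log2 scale (limma, each adjusted p under 0.05). Genes were tested with limma over 12 arrays, and the errors of log2 differences are its standard errors with 3 arrays per group. Calls used a Benjamini-Hochberg adjusted p under 0.05 over all 19938 genes. The replicates are independent experiments, per the design text. The p-values rest on the spread of arrays within groups, which includes differences between the experiments and between the lines, since the fit has no term for either.

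Most members were lower in induced cells than in the control of the same day, 4 at 12 h and 8 at 24 h. None passed the test in the other direction. Fell and rose, for induction effects, mean lower and higher than the control of the same day. That control can itself change between the days. At 12 h, 4 of the 10 members fell (Fst, Lefty1, Nodal and Tdgf1), where 1.39% of all genes changed in either direction and 0.577% fell. At 24 h, 8 of the 10 were lower, where 5.46% of all genes changed and 3.43% were lower, and Gdf3 and Pcsk6 did not pass the test. Of these 8, Cfc1 (0.01, limma adjusted p = 0.986) and Acvr2b (-0.58, 0.0865) were not called lower at 24 h against control day 2.5. The count of members that rose was 0 at both times by limma, where 0.813% and 2.03% of all genes rose. At an unadjusted p under 0.05, limma gave 6 lower and 1 higher (Cfc1) at 12 h, and 8 lower and 0 higher at 24 h. The share of all genes at that unadjusted threshold is not given, nor is it for later counts on induction effects and their change with time. The median log2 difference of the members was -0.58 at 12 h and -1.97 at 24 h, against -0.01 and -0.00 over all genes. In 5 members at 12 h and 8 at 24 h every induced array lay below every control array, which held for 7.72% and 10.9% of all genes. In bulk RNA, fewer cells of a type and less RNA per cell cannot be told apart.

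**Figure D1:**
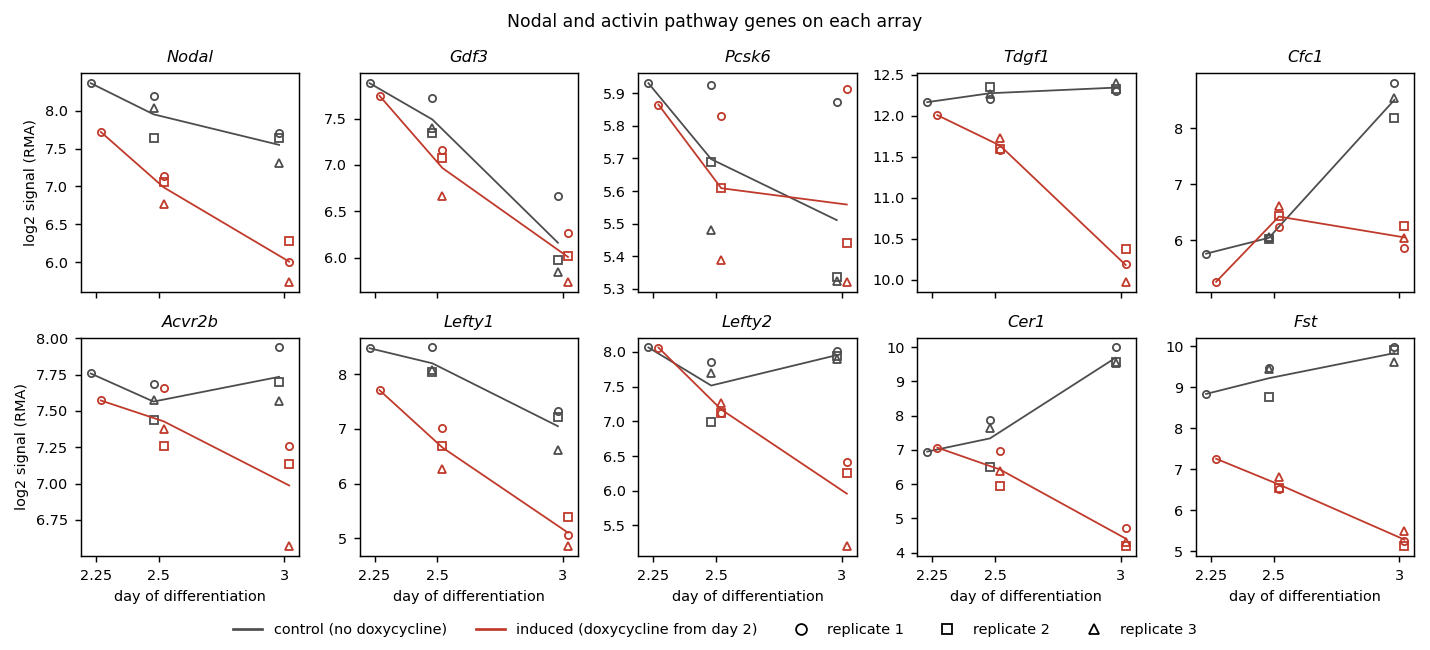
Log2 signal after RMA (vertical axes, each on its own range) of the 10 members against the day of differentiation, with grey for control and red for induced cells, 1 symbol per array with a shape per replicate, and lines through the group means. Fst lies lower on the induced arrays at 6 h, 12 h and 24 h, Cer1 and Cfc1 separate widely at 24 h, and the Pcsk6 groups overlap.

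Promoter windows were at hand for 6 of the 10 members. Those of Nodal (the ligand), Cer1 (the widest difference at 24 h) and Cfc1 (above the controls on every array at 12 h and below them at 24 h) are shown with every match to the short core motifs of the factor families in question. Each run is the 250 bases before the RefSeq transcript start, read 5′ to 3′ on the gene's strand in GRCm38.p6: Nodal at chr10:61417722-61417971 on the plus strand, Cer1 at chr4:82885152-82885401 on the minus strand and Cfc1 at chr1:34535398-34535647 on the plus strand. Capitals mark a match on either strand.
Nodal: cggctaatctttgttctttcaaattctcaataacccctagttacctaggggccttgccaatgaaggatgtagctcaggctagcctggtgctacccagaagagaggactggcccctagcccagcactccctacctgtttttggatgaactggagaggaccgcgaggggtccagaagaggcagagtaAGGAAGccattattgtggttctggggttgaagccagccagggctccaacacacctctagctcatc
Cer1: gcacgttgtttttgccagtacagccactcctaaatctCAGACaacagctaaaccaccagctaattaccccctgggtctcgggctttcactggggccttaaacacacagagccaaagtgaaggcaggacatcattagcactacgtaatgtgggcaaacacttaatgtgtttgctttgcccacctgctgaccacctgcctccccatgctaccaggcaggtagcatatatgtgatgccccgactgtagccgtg
Cfc1: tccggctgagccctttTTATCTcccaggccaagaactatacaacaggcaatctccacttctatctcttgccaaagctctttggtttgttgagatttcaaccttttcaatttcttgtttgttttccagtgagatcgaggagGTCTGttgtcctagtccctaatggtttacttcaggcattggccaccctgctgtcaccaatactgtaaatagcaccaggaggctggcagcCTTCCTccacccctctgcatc
The capitals in Nodal are the ETS core AGGAAG, which 29.5% of 32851 RefSeq mouse promoter windows of this length hold. Cer1 holds the SMAD core CAGAC, found in 42.2% of the windows. Cfc1 holds, in order, the GATA motif AGATAA on the opposite strand (9.99% of windows), CAGAC on the opposite strand and AGGAAG on the opposite strand. The FOXH1 motif AATCCAC (2.1% of windows), the ETS core CGGAAG (13.6%) and the E-box CAGATG (14.4%) had no match in the windows of the 6 members. Of the other windows, Tdgf1 held CAGAC and AGGAAG, Acvr2b held CAGAC, and Pcsk6 held none of these motifs. A match is a run of letters and not a measured binding site, none of the motifs overlaps another as spelled here, and the search was chosen after the expression values were seen.

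Nodal, the ligand, fell at both times. Its log2 signal was 8.19, 7.64 and 8.04 on the control day 2.5 arrays (replicates 1 to 3) and 7.14, 7.06 and 6.77 on the induced 12 h arrays. On day 3 it was 7.70, 7.64 and 7.31 in the controls and 6.01, 6.27 and 5.74 at 24 h. The induced arrays lay below all control arrays of their day, and the lowest values of the series were the 24 h ones. The difference was -0.97 ± 0.187 at 12 h (1.95-fold lower, limma adjusted p = 0.0151) and -1.54 ± 0.187 at 24 h (2.92-fold lower, adjusted p = 9.98e-05). The 12 h call was lost without replicate 1, 2 or 3, and also without single arrays (control day 2.5 replicate 1 or 3, induced 12 h replicate 2 or 3), with adjusted p between 0.0506 and 0.293. The 24 h call held under all 24 alternatives. From highest to lowest, the group means were 7.95 ± 0.287 (SD, n = 3) in control day 2.5, 7.55 ± 0.211 in control day 3, 6.99 ± 0.192 at 12 h and 6.01 ± 0.267 at 24 h. The difference between the control days, -0.40, did not pass the test (adjusted p = 0.748), while the difference between the induced times did (-0.98, adjusted p = 0.0141). That last call was lost in 6 of the 24 alternatives, among them without replicate 2 or 3, without induced 12 h replicate 1 or 2 and without induced 24 h replicate 3.

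Gdf3, a ligand of the same family that can signal through the Nodal receptors and is expressed in pluripotent cells, followed the day of culture. It was 7.73, 7.35 and 7.40 in control day 2.5, 7.16, 7.08 and 6.67 at 12 h, 6.66, 5.98 and 5.85 in control day 3, and 6.27, 6.02 and 5.74 at 24 h. At 12 h every induced array lay below every control array, and at 24 h the groups overlapped. Neither induction effect passed the test (12 h, -0.52 ± 0.219, adjusted p = 0.58, and 24 h, -0.15 ± 0.219, adjusted p = 0.782). Between the control days it fell by 1.33 ± 0.219 on the log2 scale (adjusted p = 0.0082), a call lost in 4 alternatives, which included leaving out replicate 2 or 3.

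Pcsk6, the convertase PACE4 that cleaves the Nodal precursor, did not differ beyond its spread. Over the 12 tested arrays it ranged from 5.32 to 5.92, with differences of -0.09 ± 0.201 at 12 h (adjusted p = 0.999) and 0.05 ± 0.201 at 24 h (0.938). Replicate 1 was the highest array in each of the 4 groups, and the control and induced ranges overlapped on both days.

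Acvr2b, a type II receptor for activins and Nodal, was called lower at 24 h and not at 12 h. The difference between the effects at these times was not called (-0.61, adjusted p = 0.809). Its signal was 7.68, 7.44 and 7.57 in control day 2.5, 7.66, 7.26 and 7.37 at 12 h, 7.94, 7.70 and 7.57 in control day 3, and 7.26, 7.13 and 6.57 at 24 h. The ranges overlapped at 12 h and were separate at 24 h, where replicate 3 was the lowest. The difference was -0.14 ± 0.184 at 12 h (adjusted p = 0.999) and -0.75 ± 0.184 at 24 h (1.68-fold lower, adjusted p = 0.0268). The 24 h call was lost when the 6 arrays of day 3 were fitted alone and without any of replicate 2 (adjusted p = 0.221), replicate 3 (0.226), control day 3 replicate 1 (0.138), control day 3 replicate 2 (0.0773) or induced 24 h replicate 3 (0.0879).

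The EGF-CFC coreceptors ran differently from each other. Tdgf1, known as Cripto, was 12.20, 12.35 and 12.27 in control day 2.5, 11.58, 11.60 and 11.73 at 12 h, 12.30, 12.33 and 12.40 in control day 3, and 10.19, 10.37 and 9.97 at 24 h. All induced arrays lay below all controls, and the controls stayed within a narrow range on both days. Its difference was -0.64 ± 0.133 at 12 h (1.56-fold lower, limma adjusted p = 0.0249) and -2.17 ± 0.133 at 24 h (4.48-fold lower, adjusted p = 2.29e-07). The 12 h call was lost without any of the 3 replicates and without any single array of the 2 groups (adjusted p from 0.0659 to 0.594), while the 24 h call held under all 24 alternatives.

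Cfc1, known as Cryptic, is best known for its part in left-right patterning. It was 6.05, 6.03 and 6.06 in control day 2.5, 6.23, 6.43 and 6.61 at 12 h, 8.80, 8.18 and 8.54 in control day 3, and 5.86, 6.25 and 6.04 at 24 h. At 12 h the induced arrays were all slightly above the controls, as for 6.78% of all genes, and at 24 h they were far below the day 3 controls, at the level of day 2.5. The 12 h difference, 0.38 ± 0.17, did not pass the test (adjusted p = 0.664), and the 24 h difference was -2.45 ± 0.17 (5.48-fold lower, adjusted p = 5.98e-07). The control level rose by 2.46 ± 0.17 from day 2.5 to day 3 (adjusted p = 7.73e-06), and induced 24 h differed from control day 2.5 by 0.01 (adjusted p = 0.986).

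Among the antagonists, Lefty1 and Lefty2 block the receptor complex and bind Nodal. Lefty1 was 8.49, 8.03 and 8.07 in control day 2.5, 7.02, 6.70 and 6.26 at 12 h, 7.33, 7.21 and 6.61 in control day 3, and 5.06, 5.40 and 4.86 at 24 h. The groups were separate on each day, and the controls themselves were lower on day 3 than on day 2.5. The induction effect was -1.54 ± 0.231 at 12 h (2.90-fold lower, adjusted p = 0.00199) and -1.94 ± 0.231 at 24 h (3.85-fold lower, adjusted p = 8.64e-05). Without replicate 2 the 12 h call was lost (adjusted p = 0.0958). The fall between the control days, -1.15 ± 0.231 (adjusted p = 0.033), was lost in 8 of the 24 alternatives (adjusted p from 0.0573 to 0.481).

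Lefty2 was 7.86, 6.99 and 7.70 in control day 2.5, 7.12, 7.12 and 7.27 at 12 h, 8.02, 7.94 and 7.90 in control day 3, and 6.41, 6.26 and 5.20 at 24 h. Unlike those of Lefty1, its 12 h arrays lay within the range of the controls, since control replicate 2 was low. The 24 h arrays were all below the controls, replicate 3 by the most. The difference was -0.34 ± 0.274 at 12 h (adjusted p = 0.999) and -1.99 ± 0.274 at 24 h (3.98-fold lower, adjusted p = 0.000311). The difference between Lefty1 and Lefty2 in their response was not tested.

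Cer1 (Cerberus-like), a secreted inhibitor that binds Nodal and BMPs and is expressed in anterior endoderm, had the widest difference of the members. It was 7.87, 6.50 and 7.63 in control day 2.5, 6.95, 5.95 and 6.38 at 12 h, 9.99, 9.55 and 9.52 in control day 3, and 4.72, 4.19 and 4.32 at 24 h. At 12 h the groups overlapped through control replicate 2, and at 24 h they lay far apart. The 24 h difference was -5.28 ± 0.319 (38.8-fold lower, adjusted p = 2.13e-07). At 12 h it was -0.91 ± 0.319 (adjusted p = 0.348). Blocking on the replicate number, the 12 h difference passed the test (adjusted p = 0.0162), and it also did with array weights (0.00698) and without control day 2.5 replicate 2 (-1.33, adjusted p = 0.0263). Its control level rose by 2.35 ± 0.319 from day 2.5 to day 3 (adjusted p = 0.00211, and 0.0909 without replicate 3), so the 24 h difference spans a rise in the controls and a fall in the induced cells.

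Fst encodes follistatin, which binds and neutralises activins. Its signal was 9.45, 8.75 and 9.44 in control day 2.5, 6.52, 6.55 and 6.80 at 12 h, 9.97, 9.91 and 9.60 in control day 3, and 5.24, 5.12 and 5.48 at 24 h. The induced arrays were more than 1 unit below every control array on both days. It had the largest difference of the members at 12 h (-2.59 ± 0.192, 6.03-fold lower, adjusted p = 4.8e-06), and the 24 h difference was -4.55 ± 0.192 (23.4-fold lower, adjusted p = 5.52e-09). Of the 4 members called at 12 h, only Fst kept its call under all 24 alternatives. At 24 h this held for 7 of 8, all but Acvr2b.

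**Figure D2:**
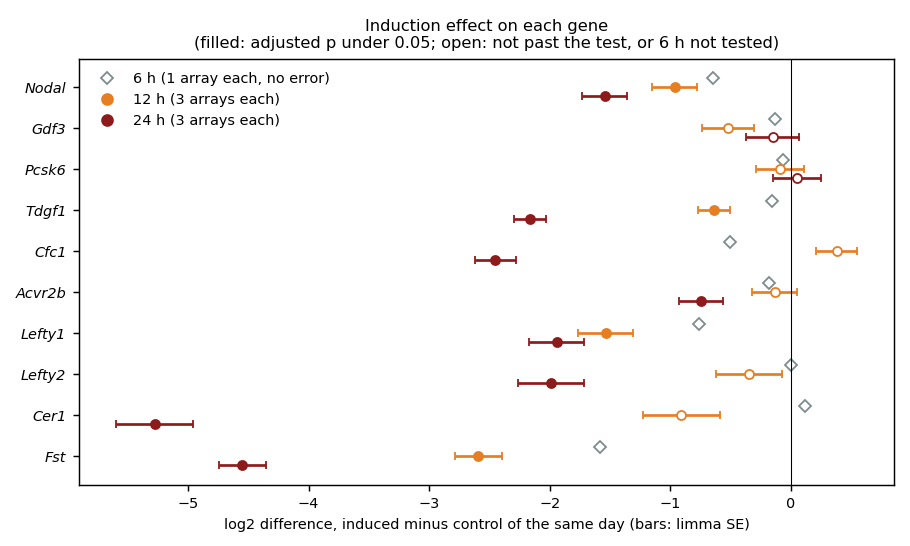
Log2 difference between induced and control arrays (horizontal axis) for each member at 6 h, 12 h and 24 h, with filled points for calls, standard errors from limma at 12 h and 24 h and a single untested difference at 6 h. Cer1 is the lowest at 24 h (-5.28), Fst the lowest at 12 h (-2.59), and Pcsk6 lies near 0 at all times.

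At 6 h there was 1 array per group, so these differences have no replicate check. Fst went from 8.83 on the control array to 7.25 on the induced array, 2.99-fold lower, and was the only member past 2-fold, where 0.135% of all genes were at least 2-fold lower. Lefty1 (8.47 and 7.71), Nodal (8.37 and 7.72) and Cfc1 (5.76 and 5.26) differed by -0.77, -0.64 and -0.50. The remaining 6 members lay between -0.19 (Acvr2b) and 0.12 (Cer1), among them Lefty2, at 8.06 on both arrays. For scale, control day 2.5 replicate 1 of the same line differed from the day 2.25 control by 0.92 for Cer1, 0.62 for Fst and 0.29 for Cfc1. For Nodal and Lefty1 this difference was -0.18 and 0.01, and for the remaining members it lay between -0.20 (Lefty2) and 0.04 (Tdgf1). The median 6 h difference was -0.17 over the members and 0.00 over all genes.

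Whether the effect changed with time was tested as the effect at 24 h minus that at 12 h, and it was larger at 24 h for 4 of the 10 members, where 0.426% of all genes passed and 0.326% passed in this direction. They were Cer1 (-4.37 ± 0.451, adjusted p = 0.000862), Cfc1 (-2.83 ± 0.241, adjusted p = 0.000113), Fst (-1.96 ± 0.271, adjusted p = 0.00504) and Tdgf1 (-1.53 ± 0.188, adjusted p = 0.0028). These 4 changes comprised an inhibitor of Nodal, both coreceptors and the activin-binding protein. All 4 calls were lost without replicate 3 (adjusted p = 0.076, 0.0613, 0.104 and 0.174), when limma called 0 members and 6 had an unadjusted p under 0.05. Those of Fst and Tdgf1 were also lost without replicate 2 (0.209 and 0.121). Lefty2 did not pass (-1.65, adjusted p = 0.108) but did with the replicate block (0.0422, a block that spans both days) and without induced 24 h replicate 1 (0.0383). Nodal (-0.58, adjusted p = 0.855) and Lefty1 (-0.41) did not pass.

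In the controls, 4 of the 10 members changed between day 2.5 and day 3, where 0.757% of all genes did (0.562% higher and 0.196% lower). Cfc1 and Cer1 rose, and Gdf3 and Lefty1 fell, with the values given above. Fst (0.61), Lefty2 (0.44), Tdgf1 (0.07), Acvr2b (0.17), Pcsk6 (-0.19) and Nodal did not pass. In the induced cells 7 of the 10 fell between 12 h and 24 h, where 1.81% of all genes changed and 1.25% fell. The log2 differences were -2.02 for Cer1, -1.55 for Lefty1, -1.46 for Tdgf1, -1.35 for Fst, -1.21 for Lefty2, -0.98 for Nodal and -0.96 for Gdf3. Of these calls only that of Tdgf1 held under all 24 alternatives. The calls of Lefty2 and Gdf3 were lost in 14 and 13 of them, that of Lefty1 without replicate 2 (adjusted p = 0.138), that of Cer1 without replicate 3 (0.157) and that of Fst without replicate 2 or 3. Cfc1 rose in the controls and differed by -0.37 in the induced cells (adjusted p = 0.401).

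Set against the day 2.5 controls, 7 members were lower at 24 h, where 6.33% of all genes differed and 4.03% were lower. Fst was lower by -3.94, Lefty1 by -3.09, Cer1 by -2.92, Tdgf1 by -2.10, Nodal by -1.95, Lefty2 by -1.56 and Gdf3 by -1.48. Acvr2b (-0.58, adjusted p = 0.0865) passed only under some alternatives, among them the replicate block (0.0202), and the call of Lefty2 was lost without replicate 3 (0.0625). This comparison shares its arrays with those above and spans both induction and time.

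**Figure D3:**
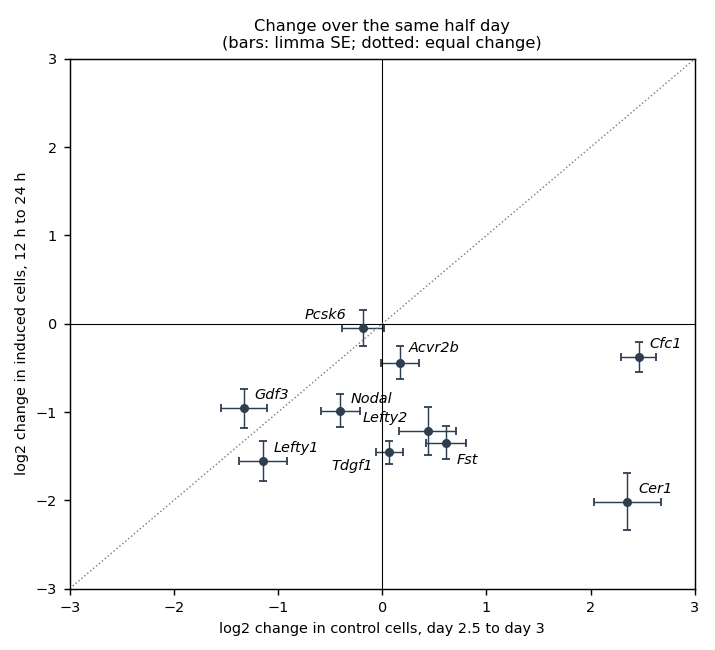
Log2 difference between day 3 and day 2.5 controls (horizontal axis) against that between induced 24 h and induced 12 h (vertical axis), 1 point per member, with standard errors from limma and a dotted line of equal change. Cer1 and Cfc1 lie far to the right (2.35 and 2.46) without a rise in the induced cells, and Gdf3 and Lefty1 are lower in both.

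The wider pathway was read from a list of 43 further genes by role, of which 40 were measured. Of these 40, 6 fell and 0 rose at 12 h, where 0.577% of all genes fell and 0.813% rose. At 24 h 11 fell and 0 rose, where 3.43% of all genes fell and 2.03% rose. At an unadjusted p under 0.05, limma gave 10 lower and 4 higher at 12 h, and 14 lower and 3 higher at 24 h. The list's median log2 difference was -0.10 at 12 h and -0.16 at 24 h, against -0.009 and -0.004 over all genes. Most calls sat in target genes, where 5 of 10 fell at 12 h and 9 of 10 at 24 h. Among the inhibitors 1 and 2 of 17 fell, and counts this small were not tested against the shares of all genes.

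None of the other ligands, processing enzymes, receptors or Smad-level transducers passed the test against the control of the same day (0 of 13 by limma, with 1 at an unadjusted p under 0.05 at 12 h and 3 at 24 h). Of all genes 1.39% passed at 12 h and 5.46% at 24 h. With so few genes, 0 of 13 is near these shares and does not set them apart from other genes. The activin subunit genes Inhba and Inhbb differed by -0.04 and -0.22 at 12 h and by 0.29 and -0.05 at 24 h. Their means in the tested groups were low, 4.35 to 4.73 for Inhba and 3.73 to 3.95 for Inhbb. Both lay under the 40th percentile of mean signal, where a fall may not show. Furin and Pcsk5, further convertases, lay between -0.05 and 0.22 at both times, and Pcsk5 was also under that percentile. The type II receptor Acvr2a differed by -0.61 at 24 h (adjusted p = 0.154, and 0.031 with the replicate block), and the type I receptor Acvr1b, or ALK4, by 0.45 (adjusted p = 0.154). Acvr1b passed as higher at 24 h with quantile normalization again (0.57, adjusted p = 0.0114), with array weights (0.0122) and without induced 24 h replicate 3 (0.0222). Against control day 2.5 it was called higher at 24 h (0.60, adjusted p = 0.0353), a call lost in 11 of the 24 alternatives. Smad4, the common mediator, differed by -0.29 at 24 h, and Foxh1, the transcription factor that partners Smad2 and Smad3 at many Nodal targets, by 0.51 at 12 h (adjusted p = 0.47) and -0.28 at 24 h (adjusted p = 0.542). Trim33, a nuclear partner of Smad2 and Smad3, differed by -0.18 at 24 h. Foxh1 and, below, Sox17 were named after their values were seen.

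Of the inhibitors, Pmepa1, a membrane protein that sequesters receptor-activated Smads and is itself induced by TGF-beta signalling, had differences of -0.91 ± 0.144 at 12 h (adjusted p = 0.00308) and -1.42 ± 0.144 at 24 h (1.93e-05), both called. The 12 h call of Pmepa1 was lost without replicate 2 or 3 (adjusted p = 0.235 and 0.143). Tgif1, a Smad corepressor, fell at 24 h (-0.94 ± 0.152, adjusted p = 0.00122). Its 12 h difference was -0.45 (adjusted p = 0.298, and 0.0177 with array weights), and the effects at the 2 times did not pass the test of their difference. Among the targets, the endoderm and node factor Foxa2 fell at both times (-2.92 ± 0.226, adjusted p = 7.51e-06, and -3.53 ± 0.226, adjusted p = 3.1e-07). The streak factors Mixl1 and Eomes fell at 12 h (-1.74, adjusted p = 0.00168, and -0.90, adjusted p = 0.0411) and at 24 h (-3.84 and -3.08). At 12 h the call of Eomes was lost in 13 of the 24 alternatives (adjusted p from 0.0532 to 0.486), among them without each replicate number, and that of Mixl1 without replicate 3 (0.146). Lhx1, an organizer factor, differed by -0.45 at 12 h (adjusted p = 0.999) and was lower by 3.96 ± 0.3 at 24 h (adjusted p = 1.35e-06). Mean Lhx1 was 7.13 in control day 2.5, 9.74 in control day 3, 6.67 at 12 h and 5.78 at 24 h. Its control rise was called in all 24 alternatives, and its change between the induced times was not called. For Mixl1 the means were 9.23, 10.43, 7.50 and 6.58 in the same order, and the call of its control rise was lost in 12 alternatives. The 24 h differences of both therefore span a rise in the controls. Sox17, of endoderm and also of endothelium, was the target without a call at 24 h (0.05, adjusted p = 0.927). Several targets also mark the streak, endoderm or pluripotent cells and sit in the marker lists below.

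**Figure D4:**
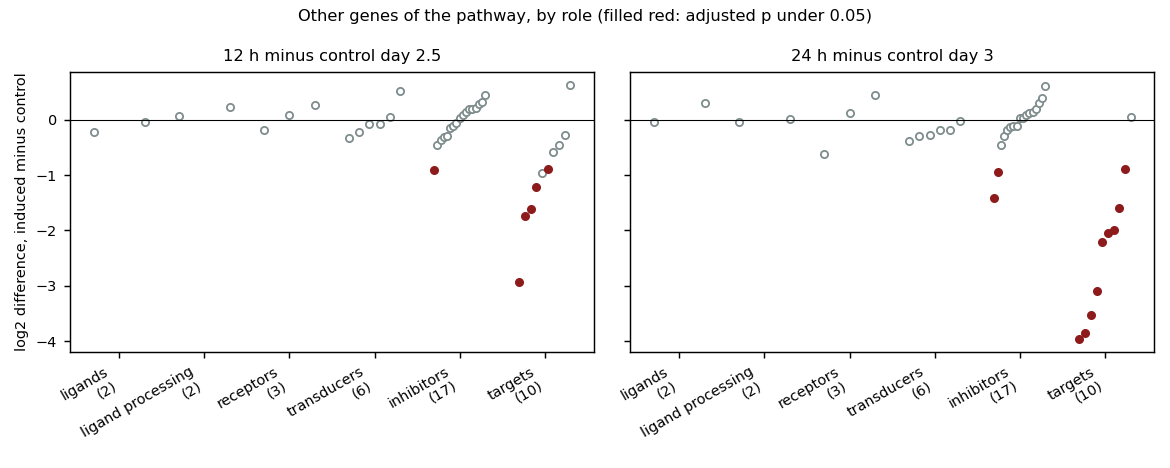
Log2 difference between induced and control arrays at 12 h and 24 h (vertical axis, 1 panel per time) for the 40 measured genes of the wider pathway list, grouped by role along the horizontal axis, with filled red points for calls. The filled points lie among the targets and inhibitors, and the lowest are Foxa2 at 12 h (-2.92) and Lhx1 at 24 h (-3.96).

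Markers of cell types that could hold these transcripts were read beside them. Of 7 epiblast and pluripotent markers, 2 fell at 12 h (Nanog and Fgf5) and 5 at 24 h, and the mean log2 signal of the list per array was 8.92 to 9.33 in control day 3 and 7.34 to 7.82 at 24 h. Of 6 streak and mesoderm markers, 3 were lower and 1 higher at 12 h, and 5 were lower at 24 h. The list mean was 8.34 to 8.60 in control day 3 and 6.01 to 6.12 at 24 h. Between the control days 5 of these 6 rose, from a list mean of 6.57 to 7.07 on day 2.5, where 0.562% of all genes rose. Between the induced times 1 of the 6 fell, where 1.25% of all genes did. Of 6 definitive endoderm and organizer markers, 1 was lower (Foxa2) and 1 higher (Hhex) at 12 h, and 4 were lower and 1 higher at 24 h. Between the control days 3 of these 6 rose. Of the endothelial markers 3 of 6 rose at 12 h and 4 of 6 at 24 h, and of the blood cell markers 2 and 3 of 5. The part of a change in cell types in the members' differences was not tested.

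Visceral endoderm, another source of Cer1 and Lefty1 in the embryo, was read from 10 markers. At 12 h limma called 0 of the 10, with 1 at an unadjusted p under 0.05, and at 24 h 1, Gata4, fell, while Gata4 and Gata6 rose between the control days. The list mean was 5.22 to 5.34 in control day 3 and 4.87 to 5.28 at 24 h. The part of visceral endoderm in the members' differences was not tested. Feeder fibroblast markers (7) had 0 calls at 12 h by limma (1 at an unadjusted p under 0.05) and 1 at 24 h (Thy1, higher), with list means between 4.75 and 5.32 over all arrays.

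The members' profiles over the 14 arrays were compared by Pearson correlation, given as a description because the arrays fall into 6 groups whose differences the profiles share. Nodal ran closest to Lefty1 (r = 0.980), Acvr2b to Lefty2 (0.923) and Fst to Cer1 (0.903), and the lowest of the 45 pairs was Gdf3 with Cfc1 (-0.53). The median pair had r = 0.700. Among all genes, those most like Nodal were Phc1 (0.988), Slc27a2 (0.980), Nefl (0.972), Phf21a (0.970) and Glrx (0.968). Those most like Cer1 were Cdh2 (0.986), Fah (0.973), Lrig3 (0.970), Emb (0.967) and Jag1 (0.966).

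The induction effect in iB1, the line of replicate 3, was set against that in iEGS for each member, over 12 h and 24 h together. A difference between the lines at only 1 of these times was not tested. No member of 10 passed the test, and limma called 0 genes in all, with 0 members and 519 genes at an unadjusted p under 0.05. The lowest unadjusted p among the members was that of Lefty2 (0.153), whose effect differed by -0.59. With 1 replicate of iB1 per group, the line cannot be told apart from the experiment of that number.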

How the data were processed

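RNA of the 14 samples was amplified as complementary DNA, biotin-labelled and hybridised to 1 Affymetrix array each, per the labels' protocols. The authors deposited a log2 signal after RMA for each of 35556 probe sets (Affymetrix Expression Console, from the submitters' processing notes). Its version and the set of arrays normalized in 1 run were not given in the sources used. RMA removes a change shared by most genes and compresses low signals. Precision is limited by the number of arrays.

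Of the probe sets, 21789 had 1 symbol in the platform annotation, 1621 had several and 12146 were not listed. RefSeq (GRCm38.p6) matched 21698 and changed 0 symbols. Of several probe sets the one of highest mean stood for a gene (999 genes). All 10 members had 1 probe set, and all 10 lay above the 40th percentile of mean signal, as did 11963 genes. The wider list had 3 genes without a value, which are not reported here.

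Groups came from the sample titles. The 4 groups of 3 arrays shared 1 limma fit (lmFit, eBayes; limma 3.58.1, R 4.3.3; 8 residual and 6.05 prior degrees of freedom), after a check on simulated data. Day 2.25 has no test. The replicate numbers were checked for pairing: the deviations of same-numbered arrays from their group means correlated with r = 0.573, 0.344 and 0.262 on day 2.5 (control with induced) and with r = 0.517, 0.158 and 0.261 on day 3. Arrays of different numbers had r from -0.415 to 0.167 on day 2.5 and from -0.535 to 0.375 on day 3. The highest on day 3 was control replicate 2 with induced replicate 3 (0.375), above that of number 2 with itself. The numbers therefore count as pairing samples within a day, except that on day 3 this is not borne out for number 2. The fit itself has no block, and the replicate block is an alternative, quoted beside a result where it changes the call. Across days r was 0.556, 0.221 and 0.0411 for controls and 0.511, -0.0047 and 0.316 for induced cells, so pairing across days is not borne out there for every number. The block (6 residual degrees of freedom) is 1 term per number over both days, so its values rest on that as well. The lines were compared by adding line and line-by-induction terms to the fit, each 1 term over both times. Members and gene lists were chosen with earlier results of these data known. Of the wider list, the text names by rule the called genes of largest change per role (up to 4), or otherwise the 2 of highest mean level. Genes most like Nodal and Cer1 are the 5 of highest correlation. The closing section gives the effect of the alternatives. Promoter windows and motifs were read from RefSeq (6 of 10 members matched, and the others are named only).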

Additional observations from a re-analysis of the deposited data

Results flagged for a closer look

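For 7 of the genes named above the induction effect at 24 h differed from that at 12 h by limma's test of the difference itself (adjusted p under 0.05). Among the members the difference between the effects was -4.37 for Cer1, -2.83 for Cfc1, -1.96 for Fst and -1.53 for Tdgf1 on the log2 scale. Of the wider pathway, it was -3.51 for Lhx1, -2.19 for Eomes and -2.11 for Mixl1. The call of Lhx1 was lost without replicate 3 (adjusted p = 0.127) and that of Eomes without replicate 2 or 3 (0.0522 and 0.174). That of Mixl1 was lost in 5 of the 24 alternatives (adjusted p from 0.0514 to 0.304): without replicate 2 or 3, control day 3 replicate 1, induced 24 h replicate 2 or induced 12 h replicate 3. The losses among the members are given above. Groups of 3 arrays were not searched for outlying samples.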

How the results depend on the processing

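Of 2439 values of single genes under the alternatives, 2271 kept their direction and side of the threshold, 104 lost the call, 19 gained it and 45 changed sign, none of them among called values. The 24 alternatives included the replicate block, quantile normalization again, centring on the median, only the compared groups, all probe sets, array weights and leaving out arrays. The planned array weights did not converge, so a gene-by-gene method was chosen after seeing the data. All 30 values at 6 h were counted as the same, but this count does not show that each kept its direction. The Lefty2 difference at 6 h was -0.0019. The array medians were 5.5821 (control day 2.25) and 5.5639 (induced 6 h), so centring on the median turns its sign.

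At 12 h the count of called genes was 277, and 798 with array weights and 441 with the replicate block. At 24 h it was 1088, and 669 with only the compared groups and 2634 with weights, and the wider list had 17 calls with weights in place of 11. For the effect at 24 h minus that at 12 h it was 85, and 139 with quantile normalization again, 318 with weights and 163 with the block. Between the control days it was 151, and 471 with weights and 344 with the block. Between the induced times it was 360, and 100 with only the compared groups (4 members and 3 of the wider list), 1495 with weights and 742 with the block. For induced 24 h against control day 2.5 it was 1262, and 679, 4091 and 2187. Centring and renormalizing moved the median of all genes by at most 0.0331. Beyond the changes in the report, the block changed the call of no other gene named there in the induction effects.

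Leaving out replicates or single arrays, members called ranged from 1 (without replicate 2) to 4 at 12 h, 7 to 8 at 24 h, 0 (without replicate 3) to 5 for the change with time, 1 (without replicate 3) to 4 between control days, 2 (without replicate 2 or 3) to 7 between induced times and 6 to 8 against control day 2.5. The wider list ranged from 2 to 8, 10 to 13, 0 to 4, 1 to 4, 1 to 5 and 11 to 13 in the same order, and all genes from 80 to 366, 392 to 1889, 2 to 109, 17 to 238, 21 to 727 and 487 to 2604. For the counts of 0 without replicate 3, limma gave 6 members and 8 of the wider list at an unadjusted p under 0.05.

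Signs turned only where no call was made. With array weights these were Pcsk6 at 24 h (-0.0034), Inhba at 12 h (0.0161), Inhbb (0.0565), Furin (0.184) and Pcsk5 (-0.0548) at 24 h, and the change with time of Furin (0.0548) and Trim33 (-0.0449). With quantile normalization again they were Furin (0.0796) and Pcsk5 (-0.023) at 24 h. Leaving out replicates or single arrays, Pcsk6 ranged from -0.199 to 0.0238 at 12 h, -0.129 to 0.228 at 24 h, -0.0399 to 0.318 for the change with time and -0.227 to 0.0684 between induced times. Gdf3 at 24 h ranged from -0.312 to 0.0964, and Cfc1 at 24 h against control day 2.5 from -0.099 to 0.104. In the wider list, Inhba at 12 h ranged from -0.185 to 0.0588 and Pcsk5 from -0.112 to 0.230. At 24 h Inhbb ranged from -0.197 to 0.135, Furin from -0.201 to 0.104, Pcsk5 from -0.0755 to 0.0709 and Trim33 from -0.410 to 0.0115. The change with time ranged from -0.0904 to 0.459 for Inhbb, -0.176 to 0.133 for Pcsk5, -0.0178 to 0.476 for Acvr1b and -0.206 to 0.274 for Trim33. The cause was not tested.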
